A study of Mus musculus with 12 samples.

Results

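Open chromatin of resting macrophages was compared between wild-type (WT) mice and mice lacking the long noncoding RNA lincRNA-EPS (KO), over 78579 autosomal regions. The comparison rested on 4 of the 12 libraries of the series, 2 WT and 2 KO at 0 h, which means no lipopolysaccharide (LPS). A region is a chain of peaks from these 4 lists that overlap by at least 1 bp. It was KO only when both KO libraries and 0 of 2 WT libraries called it, and WT only in the reverse case. KO-only regions numbered 583, or 0.742% of the 78579, and WT-only regions numbered 2862, or 3.64%.

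All cells were bone marrow-derived macrophages of female C57BL/6 mice, cultured for 9 days with 20% L929 supplement, and 50000 of them entered each transposition. The only alleles the labels name are wild type and the lincRNA-EPS knockout, and neither how the knockout was made nor the age of the mice is given in the sources used here. The other 8 libraries, 2 per genotype after 2 h and after 6 h of LPS at 100 ng/ml, were used to follow the regions in libraries that played no role in choosing them. Peak names inside the 4 lists labelled 2 h read 1 h, and the groups here follow the labels. Nothing in the labels says whether both libraries of a group stem from different mice or dishes, so p-values reflect the spread of these libraries alone and that spread may be technical.

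ATAC-seq uses the Tn5 transposase to cut and tag DNA that nucleosomes leave exposed, and a peak marks such a stretch, often a promoter or an enhancer. Much of the enhancer landscape of a macrophage is laid down before any stimulus by lineage factors such as PU.1, and inflammatory factors such as NF-κB act largely on it once LPS engages TLR4. lincRNA-EPS is known as a nuclear RNA of resting macrophages that restrains immune genes and whose level drops after TLR stimulation, so the resting comparison asks whether its loss alters chromatin before LPS arrives.

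The KO libraries were the shallower ones. Background coverage, a measure of relative depth in reads that was recovered from the deposited peak values, was 2.35 and 2.51 in the WT libraries at 0 h. It was 1.77 in KO replicate 1 and 1.43 in KO replicate 2, which is 56.9% of the deepest library at 0 h. The WT lists held 65428 and 65148 autosomal peaks and the KO lists 63833 and 53365. KO replicate 2 thus stood apart as the shallowest library with the shortest list. The counts of one-genotype regions and the fit of summit coverage are also given without it. Calls of these regions with LPS were not recounted without it. The 8 libraries with LPS had background coverages of 2.17 to 3.35. Gene positions of the mm9 build, which the lists use, were not used here. The targeted gene on chromosome 4 and the marker genes of macrophages were therefore not looked up, and regions are given by mm9 coordinates alone.

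The resting peak sets of WT and KO overlapped in most regions. All 4 libraries called 45273 of the 78579 regions (57.6%). A further 9571 (12.2%) were called in 3, 8825 (11.2%) in 2 and 14910 (19.0%) in 1. WT replicate 1 shared 86.8% of its peaks with WT replicate 2, 84.7% with KO replicate 1 and 75.2% with KO replicate 2. KO replicate 1 shared 87.5% and 87.3% of its peaks with the WT libraries and 76.5% with its own replicate. The list of KO replicate 2 was the shortest, which limits the share of any longer list that it can match, so the order of these shares is not read as likeness. KO replicate 2 itself shared 93.3% and 93.0% with the WT libraries and 91.9% with KO replicate 1.

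WT-only regions made up 83.1% of the 3445 regions set apart by genotype. The same 4 libraries can be paired across genotypes in 2 other ways. Pairing by replicate number gave 2088 regions called only in both replicates 1 and 605 called only in both replicates 2, a total of 2693 with 77.5% on the larger side. Crossing the numbers gave 2010 regions called only in WT replicate 2 and KO replicate 1 and 677 only in WT replicate 1 and KO replicate 2, a total of 2687 with 74.8% on the larger side. The genotype pairing had the highest total of the 3. In each pairing the pair with KO replicate 2 had the smaller count, 583, 605 and 677 regions, and the pair without it the larger, 2862, 2088 and 2010. With 2 libraries against 2, the smallest two-sided exact p is 1 in 3, so none of these counts has a test.

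**Figure D1:**
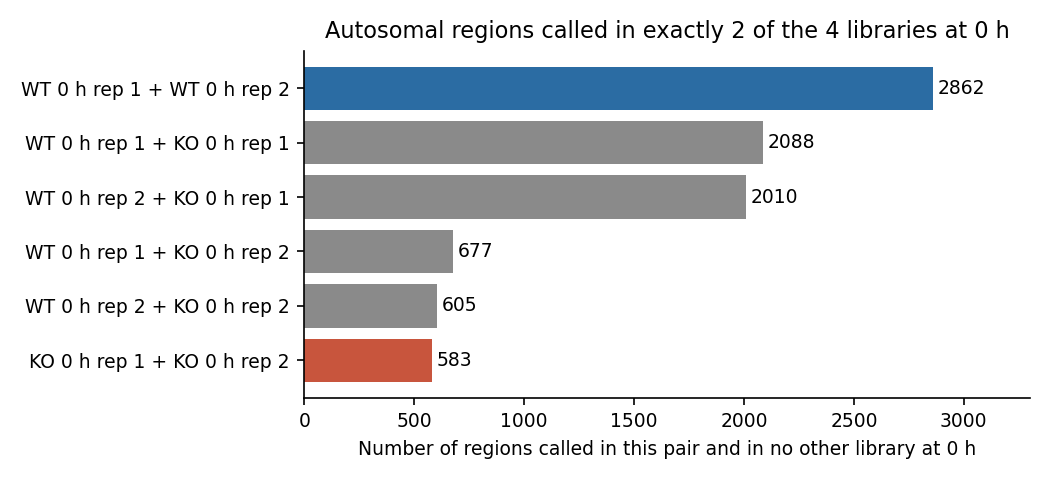
Number of autosomal regions called in exactly 2 of the 4 libraries at 0 h, for each of the 6 pairs, with WT only in blue, KO only in red and mixed pairs in grey. The 3 pairs that hold KO replicate 2 have 583 to 677 regions and the 3 without it 2010 to 2862.

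Many regions missed the one-genotype rule by 1 library. Both WT libraries and KO replicate 1, but not KO replicate 2, called 6118 regions, while 1498 were called in both WT libraries and KO replicate 2 alone. On the KO side, 1026 regions were called in both KO libraries and WT replicate 1 alone, and 929 in both KO libraries and WT replicate 2 alone. The shortfall was thus largest for KO replicate 2. After the summit coverage of each peak was thinned at random to the lowest background coverage of the 4 libraries, KO-only regions numbered 896 and WT-only regions 2068, and the WT-only share was 69.8%. The total of 2964 then lay next to the mixed totals of 2962 and 2777. KO replicate 2 still had the shortest list, with 53364 peaks against 60183 to 62702. With lists of equal length the genotype total was 2521, above mixed totals of 2212 and 2304. With a −log10 q of at least 5 it was 3442, above 2514 and 2532. Without KO replicate 2, so that 1 call in KO replicate 1 sufficed, there were 4855 KO-only and 4382 WT-only regions, and the WT-only share was 47.4%.

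One-genotype regions were narrow and weak peaks. The deposited lists give a fold over local background, a −log10 p-value and a −log10 q-value for each peak. These are the authors' own values, and peaks were ranked here by their percentile of −log10 q within each list. KO-only regions had a median mean percentile of 14.1 (quartiles 9.18 and 20.9) in the KO lists. WT-only regions had 17.8 (11.5 and 25.2) in the WT lists, and regions called in all 4 libraries had 62.1 (42.2 and 81.1). Median widths were 331 bp for KO-only and 338 bp for WT-only regions against 630 bp for regions called in all 4. Regions called in 1 WT and 1 KO library resembled the one-genotype regions, with a median percentile of 16.3 and a median width of 333 bp. Percentiles of lists of unequal length are not compared between genotypes as a change.

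The step across the rule was gradual. Regions called in both WT libraries had a median WT percentile of 17.8 where 0 KO libraries called them, 25.2 where 1 did (7616 regions) and 64.9 where both did. Their median summit coverage, the number of reads over the peak summit, was 18.5, 21.5 and 47.5 reads. For regions called in both KO libraries, the median KO percentile was 14.1 with 0 WT calls, 19.4 with 1 (1955 regions) and 60.2 with 2, at 13.5, 15.5 and 35.5 reads. Few members ranked high: 1 KO-only region (0.172%) and 10 WT-only regions (0.349%) reached the 50th percentile, against 65.3% of the regions called in all 4.

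Both kinds of region lay on all 19 autosomes. KO-only regions were 0.551% (chromosome 17) to 1.03% (chromosome 13) of a chromosome's regions, with a median of 0.732%. WT-only regions were 3.08% (chromosome 16) to 4.17% (chromosome 18), with a median of 3.58%. Chromosome 4, which carries lincRNA-EPS, had 0.68% and 3.89%. WT-only regions outnumbered KO-only regions on every autosome, with a share of 76.7% on chromosome 13 to 87.2% on chromosome 17. The median distance to the next region of the same kind was 894 kb for KO-only and 161 kb for WT-only regions, and 2 KO-only (0.343%) and 128 WT-only regions (4.47%) had one within 10 kb. Such distances shrink as the number of regions grows. For the 5380 regions called in 1 WT and 1 KO library, the median was 81.7 kb and the share within 10 kb was 9.42%.

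Most one-genotype regions of resting cells were called in the other genotype once LPS libraries were examined. Every KO library with LPS was deeper than the KO libraries at 0 h (background coverage 2.17 to 3.35 against 1.43 and 1.77). LPS and depth thus cannot be told apart in the later KO calls. Of the 583 KO-only regions, 540 (92.6%) were called in at least 1 of the 4 WT libraries with LPS and 172 (29.5%) in all 4. The KO libraries with LPS called 532 of them (91.3%) at least once and 207 (35.5%) in all 4. Of the 2862 WT-only regions, 2668 (93.2%) were called in at least 1 KO library with LPS and 954 (33.3%) in all 4. The WT libraries with LPS called 2725 of them (95.2%) at least once and 1050 (36.7%) in all 4. Regions of the mixed pairings were called at least once in 93.8% of cases by WT and 93.0% by KO libraries, and in all 4 in 32.2% and 33.0%. KO-only regions were called at 2 h in 68.3% and 57.6% of cases by the WT libraries and in 61.8% and 65.5% by the KO libraries. At 6 h the shares were 65.9% and 66.2% in WT and 75.8% and 60.2% in KO. The genotypes overlapped at both times.

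For WT-only regions the shares at 2 h were 78.1% and 65.3% in WT and 64.7% and 67.8% in KO. At 6 h they were 66.9% and 68.2% in WT and 78.2% and 57.4% in KO. Again the libraries of WT and KO overlapped at both times. Regions of the mixed pairings were called in 66.3% ± 9.8 (WT) and 64.4% ± 2.3 (KO) of cases at 2 h and in 65.6% ± 1.2 and 68.1% ± 12.2 at 6 h (mean ± SD, n = 2 libraries each). Group means of the one-genotype regions ran from 63.0% to 71.7%.

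**Figure D2:**
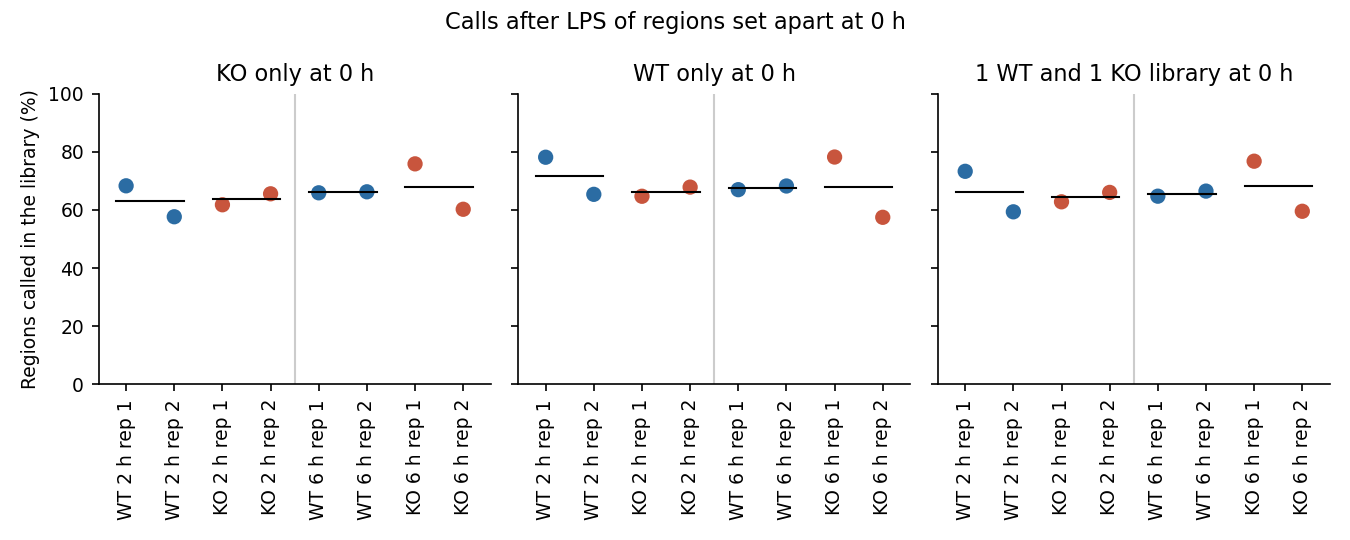
Share of KO-only, WT-only and mixed regions of 0 h (panels, in percent) that each library with LPS called; blue points are WT libraries, red points KO libraries, and black bars the mean of the 2 libraries of a group. In all 3 panels the libraries lie between 57.4% and 78.2% and the genotypes overlap at both times.

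The lean toward the genotype of origin was small. KO-only regions were called in more KO than WT libraries with LPS in 165 cases (28.3%), in more WT than KO libraries in 138 (23.7%) and equally in 280. Among the 5380 regions of the mixed pairings, 29.3% were called in more KO and 28.6% in more WT libraries. The KO-only share of 28.3% thus lay at the mixed 29.3%, while the share called in more WT libraries lay below the mixed 28.6%. WT-only regions were called in more WT libraries in 910 cases (31.8%), in more KO libraries in 732 (25.6%) and equally in 1220. No test was made of these shares, since regions are not replicates.

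The lean of WT-only regions varied with their rank. Of the 379 WT-only regions at or above the 30th percentile, 111 (29.3%) were called in more WT libraries with LPS and 52 (13.7%) in more KO libraries, while 57.0% were called in equal numbers. Mixed regions of that rank (504) were called in more WT libraries in 20.6% of cases and in more KO libraries in 20.8%. From the lowest rank upward, WT-only regions below the 10th percentile had 36.2% and 28.0%, those from the 10th to the 20th 32.0% and 28.9%, and those from the 20th to the 30th 29.6% and 24.8%. In each of the 4 rank classes the WT side was thus the larger, and the KO side was smallest in the highest class. The KO side of mixed regions was smallest there as well, after 30.9%, 30.6% and 29.0% in the lower classes from the lowest upward. Their WT side in those classes was 33.1%, 29.8% and 25.4%, so it was the larger in the lowest class alone. Only 41 KO-only regions reached the 30th percentile, of which 12 were called in more KO and 7 in more WT libraries with LPS.

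The same rule was then applied to the LPS libraries of each time. Over all 78579 regions, 806 (1.03%) were KO only and 1041 (1.32%) WT only at 2 h, and 978 (1.24%) and 574 (0.730%) at 6 h. Of the KO-only regions of resting cells, 18 (3.09%) were KO only at 2 h and 19 (3.26%) at 6 h. Of the WT-only regions of resting cells, 142 (4.96%) were WT only at 2 h and 58 (2.03%) at 6 h. Some turned to the other side: 20 KO-only regions (3.43%) were WT only at 2 h and 11 (1.89%) at 6 h, and 56 WT-only regions (1.96%) were KO only at 2 h and 76 (2.66%) at 6 h. Each of these 8 shares lay above the share of the same call over all 78579 regions. That baseline is low for any list of weak peaks, so the excess is not read as a genotype difference. Regions called in all 4 libraries at 0 h make up 57.6% of it. LPS libraries called 97.7% to 99.3% of those (group means), which leaves few to be of one genotype later. For the WT-only list, the share that stayed exceeded its share over all regions by a larger factor than the share that turned at both times, and for the KO-only list the factors were close.

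Regions that kept to 1 genotype through all 12 libraries were few. Among the WT-only regions, 9 were called in all 4 WT and 0 of 4 KO libraries with LPS, and among the KO-only regions 1 was called in all 4 KO and 0 of 4 WT libraries. These are 0.314% and 0.172% of their lists. Among the 5380 mixed regions, 5 (0.093%) were called with LPS in all 4 WT and 0 of 4 KO libraries and 4 (0.074%) in the reverse way, and 1 WT-only region was called in all 4 KO and 0 of 4 WT libraries. The strongest was chr5:110425133-110425871 (mm9), with WT summit coverage of 78 and 78 reads at 0 h. With LPS it was 91 and 83 reads at 2 h, then 80 and 91 at 6 h. Its mean percentile at 0 h was 91.7 ± 0.19 and its mean fold 13.2 ± 0.19 (SD, n = 2). It was a strong peak in every WT library and absent from every KO list. Next came chr6:144865533-144866066, with 51 and 57 WT reads at 0 h (70 and 50 after 2 h of LPS, 54 and 57 after 6 h) and a percentile of 79.8 ± 1.0. Over all 19 autosomes, these were the 2 WT-only regions at or above the 60th percentile, which 0 KO-only regions reached.

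Around chr5:110425133-110425871 and chr6:144865533-144866066, the neighbours called in all 12 libraries showed no shared fall in KO. Within 200 kb of the chromosome 5 region, 10 of 11 such regions had higher summit coverage in KO at 0 h, with a median KO minus WT difference of 0.16 on the log2 scale, and 0 passed the test described with the fit. Within 200 kb of the chromosome 6 region, 4 of 6 were lower in KO, with a median of −0.03, and again 0 passed.

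The other WT-only regions of this kind were weaker. At chr8:115450724-115451169 the WT summit coverage was 43 and 16 reads at 0 h (37 and 21 after 2 h of LPS, 38 and 27 after 6 h). At chr6:3377191-3377522 it was 18 and 28 reads at 0 h, and at chr13:88802257-88802700 it was 24 and 20. The first of these differed more than 2-fold between the WT libraries at 0 h, and its percentile was 44.9 ± 41.2. Regions at chr8:126156975-126157254 and chr19:45298580-45298939 had percentiles of 24.9 ± 9.9 and 23.2 ± 6.5. The 9th is counted but not named. The weakest named, chr14:70079032-70079367, stood at 5.76 ± 5.6, with 18 and 17 reads at 0 h (28 and 15 after 2 h, 22 and 23 after 6 h). The KO-only region, chr10:5989628-5990136, was weak as well, with 14 and 10 KO reads at 0 h (18 and 13 after 2 h, 16 and 18 after 6 h).

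The remaining high-ranked WT-only regions of resting cells were called in KO after LPS. At chr16:76149685-76150238, WT coverage was 29 and 34 reads at 0 h (35 and 41 after 2 h of LPS, 83 and 73 after 6 h). KO libraries did not call it at 0 h and had 32 and 40 reads after 2 h and 77 and 49 after 6 h. Both WT libraries at 6 h thus lay above those at 0 h, and the KO libraries called the region after LPS alone. The KO libraries with LPS were deeper than those at 0 h, and the part of depth in these calls was not tested. Regions at chr9:15745398-15745818, with 34 and 25 reads, and chr10:93889040-93889472, with 25 and 33, were called in 3 of 4 KO libraries with LPS. Those at chr10:42416850-42417234, chr10:56058787-56059254 and chr2:29093143-29093571 had percentiles of 50.9 to 53.6 and were called in all 4.

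KO-only regions were also called in WT after LPS, even those that ranked highest. The first, chr3:148165921-148166422, had 24 and 22 reads in the KO libraries at 0 h and a percentile of 53.7 ± 0.62. With LPS it had 28 and 29 reads in WT at 2 h and 16 reads in 1 WT library at 6 h, while KO had 15 and 19 after 2 h and 19 and 13 after 6 h. A region at chr17:89418848-89419248, with 21 and 19 reads at 0 h, was called in both WT libraries at 2 h and in 0 of 2 at 6 h, and in all 4 KO libraries. The third, chr10:98560021-98560428, had 19 and 18 reads and was called in 3 of 4 WT libraries with LPS. Regions at chr2:73397741-73398120, chr13:95329919-95330313, chr4:3840539-3840994, chr2:75952811-75953213 and chr2:75308315-75308692 had percentiles of 38.8 to 42.3 and were called in all 4 WT libraries with LPS. Each of the 8 highest-ranked KO-only regions was thus called in at least 2 WT libraries after LPS.

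A called or uncalled peak says little about size, so the summit coverage of the 42138 regions called in all 12 libraries (53.6% of the 78579) was compared between genotypes. Values were log2(summit coverage + 1), centred on each library's median. The model was limma with all 12 libraries in 6 groups, the contrast KO minus WT at 0 h, and Benjamini-Hochberg adjustment over the 42138 regions, to which every adjusted p below refers. It found 5 regions (0.0119%) higher and 8 regions (0.0190%) lower in KO at an adjusted p below 0.05. At an unadjusted p below 0.05 there were 2491 higher and 1750 lower regions, 10.1% of those tested. That order depended on the scaling, with 1770 higher and 1857 lower after quantile normalization and 2057 and 1922 after cyclic loess. The median difference was 0.02, the middle 90% of regions lay between −0.37 and 0.35, and 1 region was above 1 and 2 below −1. Each of the 13 regions that passed thus lay well outside the range of the middle 90%.

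**Figure D3:**
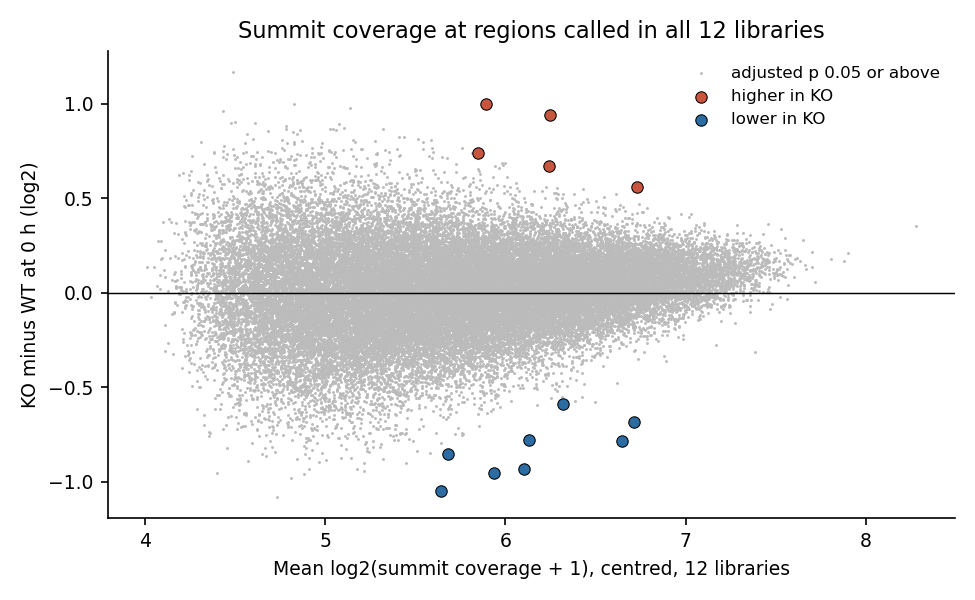
KO minus WT difference at 0 h (log2, vertical axis) against mean centred log2 summit coverage over 12 libraries (horizontal axis) for 42138 regions; grey points had an adjusted p of 0.05 or above, red points are the 5 regions higher and blue points the 8 lower in KO. The cloud of grey points narrows to the right and lies between −0.37 and 0.35 for the middle 90% of regions.

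At 4 of the 5 regions with higher coverage in KO, WT coverage was higher after LPS than at 0 h. The regions were chosen for higher KO than WT values at 0 h, so this can follow from that choice alone. The share of all 42138 regions with such a rise was not counted. At chr6:99007001-99007634, coverage at 0 h was 24 and 30 reads in WT and 50 and 33 in KO, a log2 difference of 0.996 ± 0.16 (SE, adjusted p = 0.00049). At chr11:43181800-43182489 it was 32 and 40 reads in WT and 53 and 51 in KO, a difference of 0.94 ± 0.13 (adjusted p = 4.96e-05). Despite the shallower libraries, raw coverage was higher in both KO libraries at both regions. A region at chr15:10626507-10627099 had 27 and 28 reads in WT and 43 and 28 in KO, a difference of 0.74 ± 0.16 (adjusted p = 0.046). Another, chr15:50603981-50604623, had 40 and 40 reads in WT and 51 and 45 in KO, a difference of 0.67 ± 0.13 (adjusted p = 0.0176). The WT and KO libraries did not overlap on the centred scale at any of these 4 regions.

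At 2 h of LPS the KO minus WT differences at these 4 regions, in the same order, were 0.39, 0.04, 0.55 and 0.23. At 6 h they were −0.17, −0.08, 0.09 and −0.10, so all 4 were nearer 0 than at rest and chr15:10626507-10627099 kept the most at 2 h. The regions were chosen for their difference at 0 h, so smaller differences at other times can follow from that choice alone. Leaving out 1 library at 0 h in turn kept differences of 0.59 to 1.15, but the call was lost without WT replicate 1 on chromosome 6 (0.84) and without any of 3 libraries at each region of chromosome 15. In WT, centred coverage from 0 to 6 h changed by 1.73, 1.48, 1.59 and 1.32 in the same order, and in KO by 0.56, 0.46, 0.93 and 0.56. These WT changes share the WT libraries at 0 h with the resting comparison and are given side by side only. The difference at 0 h minus the mean difference at 2 and 6 h, a contrast added after these values were seen, was 0.96 on chromosome 11 (limma, adjusted p = 0.00877) and passed at no other of the 42138 regions, of which 3079 (7.31%) had an unadjusted p below 0.05.

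The last region higher in KO, chr4:141161630-141162328, had 104 and 88 reads in WT and 112 and 100 in KO at 0 h, a difference of 0.56 ± 0.11 (adjusted p = 0.0224). Its KO minus WT difference was −0.16 at 2 h and 0.03 at 6 h. Without KO replicate 2 or without WT replicate 2 the difference at 0 h was 0.47 or 0.44 and missed the threshold. After quantile normalization of the libraries the difference at 0 h was 0.446 and missed the threshold, and after cyclic loess it was 0.495 and passed. Centred coverage at this region changed by −0.10 from 0 to 6 h in WT and by −0.62 in KO.

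Among the 8 regions lower in KO, a first set was lower at 0 h and close to WT with LPS. These regions too were chosen for their difference at 0 h, so values nearer 0 with LPS can follow from that choice alone. At chr13:89967975-89968490, coverage was 56 and 51 reads in WT and 25 and 14 in KO, a difference of −1.05 ± 0.18 (adjusted p = 0.00132), with −0.15 at 2 h and −0.21 at 6 h. At chr10:111597141-111597688 it was 55 and 62 reads in WT and 31 and 18 in KO, a difference of −0.85 ± 0.18 (adjusted p = 0.046), with 0.03 and 0.20 after LPS. The lowest KO value came from replicate 2 in both. At chr1:84878017-84878876, with 79 and 71 reads in WT, KO replicate 1 had 49 and replicate 2 had 21, a difference of −0.78 ± 0.16 (adjusted p = 0.046). At chr1:82789617-82790273, with 83 and 83 reads in WT and 44 and 38 in KO, the difference was −0.59 ± 0.12 (adjusted p = 0.046). After LPS the differences at these 2 regions were 0.09 and 0.11 at 2 h and 0.13 and −0.15 at 6 h. Without KO replicate 2 the differences at 0 h were −0.82 on chromosome 13, −0.65 on chromosome 10, −0.36 at chr1:84878017-84878876 and −0.65 at chr1:82789617-82790273, and none of the 4 passed. Without KO replicate 1 the value at chr1:84878017-84878876 was −1.20, and chr1:82789617-82790273 missed the threshold at −0.52. None of the 4 passed without WT replicate 1 either, and without WT replicate 2 the chromosome 13 region alone did, with differences of −0.59 to −1.11 over these fits. The change of genotype difference with LPS did not pass at any of these 4, with adjusted p of 0.224 to 0.517.

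A second set stayed further below WT with LPS, by −0.30 to −0.85. The chromosome 13 region of the first set was also lower in KO at every time, but by less, and no test separates the sets. At chr4:109078458-109079782, 1325 bp wide, coverage was 92 and 97 reads in WT and 36 and 36 in KO at 0 h, a difference of −0.95 ± 0.15 (adjusted p = 0.00049), with −0.85 at 2 h and −0.78 at 6 h. Without WT replicate 2 the difference was −0.91 and missed the threshold. This region lies on the chromosome of lincRNA-EPS; its position relative to that gene was not analysed here. Its 15 neighbours within 200 kb had a median difference of −0.02, and 0 of them passed.

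The other 3 regions of this second set lay in 1 stretch of chromosome 14. At chr14:70029138-70029723, coverage was 82 and 83 reads in WT and 39 and 26 in KO, a difference of −0.93 ± 0.14 (adjusted p = 0.000124). At chr14:69885172-69885944 it was 123 and 134 reads in WT and 65 and 47 in KO, a difference of −0.79 ± 0.11 (adjusted p = 4.96e-05). At chr14:69875107-69875806 it was 122 and 133 reads in WT and 60 and 58 in KO, a difference of −0.68 ± 0.11 (adjusted p = 0.00049). WT and KO libraries were well apart at all 3, and the last missed the threshold without WT replicate 2 (−0.62). The KO minus WT differences were −0.73, −0.68 and −0.40 at 2 h and −0.68, −0.30 and −0.44 at 6 h, in the same order.

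**Figure D4:**
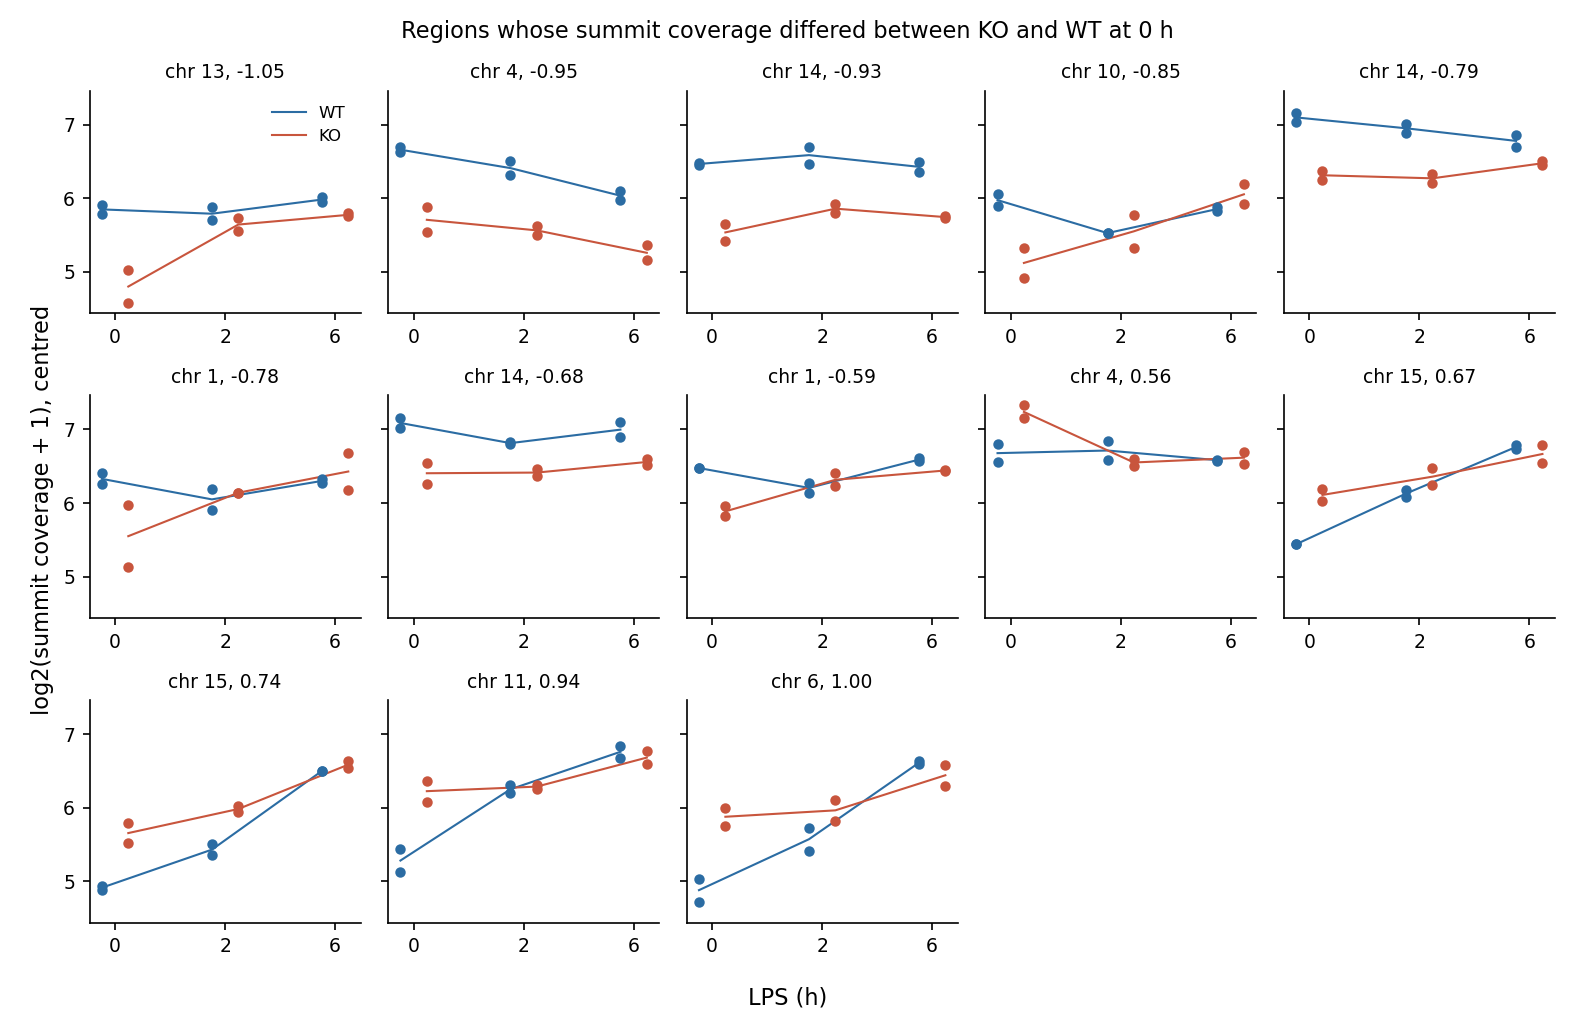
Centred log2(summit coverage + 1) by hours of LPS for the 13 regions that differed at 0 h, 1 panel each with its chromosome and KO minus WT difference at 0 h; points are libraries (blue WT, red KO) and lines join the means of 2 libraries. The chromosome 14 panels and the chromosome 4 panel with −0.95 keep KO below WT at all times, and the chromosome 6, 11 and 15 panels meet at 6 h. In the chromosome 13 panel the KO mean is also below WT at all times, by less with LPS.

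The number of these calls varied with the setting. With the deposited fold in place of summit coverage, or without a trend of variance on level, 0 regions passed in either direction by limma, at 1721 higher and 1715 lower, or 1952 and 1905, regions with an unadjusted p below 0.05. Without KO replicate 1, so that the shallowest library alone stood for KO, 87 regions were higher and 145 lower. Of the 11 alternatives, 8 or 9 kept an adjusted p below 0.05 for each of the 3 chromosome 14 regions, and 8 did so for chr4:109078458-109079782 and chr11:43181800-43182489. The other 8 regions passed in 2 to 6 of the 11. Of the 13 regions, 7 missed the threshold without WT replicate 1, 8 without WT replicate 2, 2 without KO replicate 1 and 6 without KO replicate 2.

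The stretch of chromosome 14 was examined further because of its 3 regions, and it has no test. Its limits were chosen after the values were seen. It runs from the first of these regions to the end of the WT-only region chr14:70079032-70079367. Between chr14:69875107 and 70079367 (204 kb), 11 of 11 regions called in all 12 libraries had lower coverage in KO at 0 h, from −0.93 to −0.12, with a median of −0.57. The median was −0.53 at 2 h and −0.58 at 6 h. Of the other 1640 such regions of the chromosome, 732 were lower in KO at 0 h, with a median of 0.02. In the 300 kb on either side, 2 regions before the stretch had a median of −0.18 and 6 after it a median of 0.26, and the region before it that lay nearest was at −0.38, within the range of the stretch.

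The WT-only region chr14:70079032-70079367 given above sets the far edge of the stretch, so its place there is not a further finding. Between it and chr14:70029138-70029723 lay chr14:70042007-70042304. That region was called in both WT libraries at 0 h, in 5 of 6 WT libraries in all and in 0 of 6 KO libraries. It lies inside only because of where the edge was set. Among 41967 runs of 10 neighbouring regions over the autosomes, the run chr14:69875107-69960792 (85.7 kb) had the lowest median difference at 0 h, −0.56, with −0.47 at 2 h and −0.51 at 6 h. The next lowest runs, at chr4:54978873-55363479 with −0.39 and chr4:111916464-114590113 with −0.38, had −0.16 and −0.04 at 2 h. The 3 highest runs were chr2:52621715-52797885 with 0.36, chr13:111889443-112434013 with 0.36 and chr11:112876792-113063407 with 0.34. They had −0.02, 0.13 and 0.21 at 2 h and −0.03, 0.02 and 0.14 at 6 h.

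Local background was lower together with the summits on chromosome 14. Local background is the read level that the peak caller takes as its baseline near a summit, here divided by the library's genome-wide background. Its KO minus WT difference at 0 h was −0.90 at chr14:70029138-70029723, −0.71 at chr14:69885172-69885944 and −0.53 at chr14:69875107-69875806. The deposited fold, which divides by this baseline, differed at these 3 regions by −0.10, −0.07 and −0.12. At the region of chromosome 13 the local background differed by −0.22 and the fold by −0.89, and at chr4:109078458-109079782 by −0.44 and −0.47. At the regions of chromosomes 1 and 10 the local background differed by −0.09 to −0.24 and the fold by −0.39 to −0.63. Local background also moved with the summits at the regions higher in KO, by 0.36 to 0.74, and the fold there differed by 0.34 to 0.72. The part of local background in these differences was not tested.

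**Figure D5:**
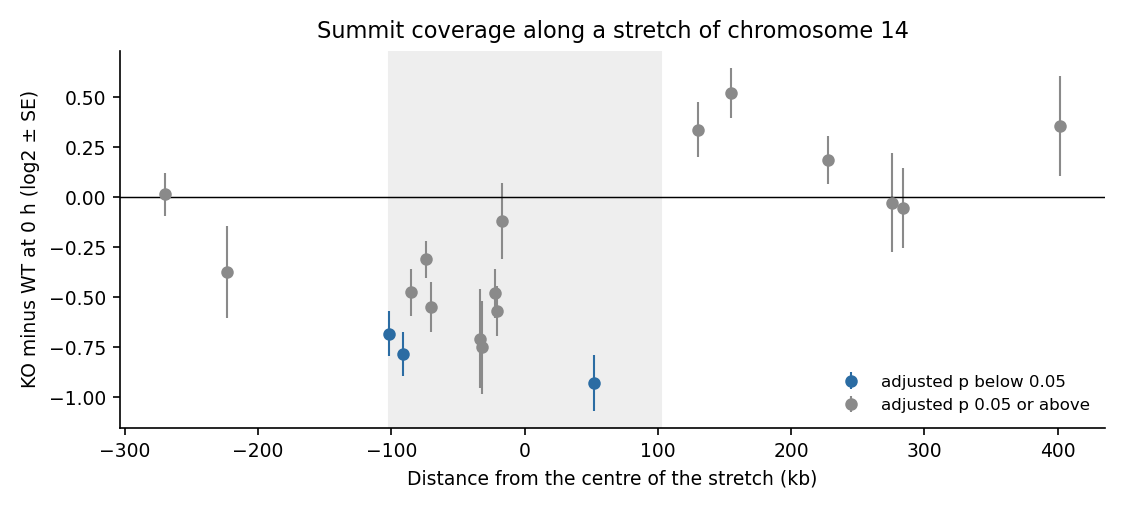
KO minus WT difference in summit coverage at 0 h (log2, vertical axis, bars are the SE of the fit) for regions called in all 12 libraries, against distance in kb from the centre of the stretch, which is shaded. The 11 shaded regions lie between −0.93 and −0.12, of which the 3 in blue had an adjusted p below 0.05, and the regions outside lie between −0.38 and 0.52.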

How the data were processed

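ATAC-seq peak lists of 12 libraries were used, of which the 4 at 0 h define the comparison. Per the submitters' processing notes, the authors used Bowtie2 2.1.0, Picard and MACS2 with mm9; settings, duplicate handling and Tn5 offset are not given in the sources. The deposited lists, 1 per library, hold per peak a fold ratio (summit over local background), the −log10 of a p-value and of a q-value, and a score of 10 times the latter. Duplicates kept in the lists would raise summit values.

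Peaks were chained on 19 autosomes. Summit coverage and background were solved from the deposited fold and p, which are a ratio and a Poisson probability of both, and for 100% of peaks the deposited p was met to within 0.001 (log10). Relative depth was taken as each library's lowest background, because the sources give no read numbers. Limma fitted log2(summit coverage + 1) with an intensity trend, 12 libraries and 6 residual degrees of freedom. Regions that any library did not call have no value and were left out of that fit. Same-numbered libraries did not deviate together (correlations of deviations −0.019 to 0.046), and the main fit did not pair them. These correlations cannot show whether same-numbered libraries share a mouse, a culture or a day.

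Regions named, on autosomes other than 18, are per direction the 8 one-genotype regions of highest mean percentile, those in 1 genotype at all times, and up to 8 regions of the fit with the largest difference. The members and lists were chosen with earlier results of these data known. Counting and fit were tested on simulated data. Tools were Python 3.11.15, numpy 2.4.6, pandas 2.3.3, scipy 1.17.1, matplotlib 3.10.9, R 4.3.3 and limma 3.58.1. Alternatives covered overlap, calling limit, list length, depth, the X chromosome, chaining, single libraries, normalization, measure, variance trend and replicate number.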

Additional observations from a re-analysis of the deposited data

Results flagged for a closer look

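Some regions set apart by genotype in resting cells were set apart the other way with LPS. At 2 h, 20 KO-only regions were called in both WT libraries and 0 of 2 KO libraries, and 56 WT-only regions in both KO libraries and 0 of 2 WT libraries. At 6 h these counts were 11 and 76. They are listed because every library of one time and every library of the other time pointed in opposite directions. The difference was not tested for any of these regions. Over all 78579 regions, WT only and KO only were 1.32% and 1.03% at 2 h and 0.730% and 1.24% at 6 h, and the regions that kept their side numbered 18 KO only and 142 WT only at 2 h and 19 and 58 at 6 h. In the summit coverage fit, the genotype difference at 0 h differed from its mean at 2 and 6 h at 1 region, chr11:43181800-43182489 (0.96 on the log2 scale, limma with Benjamini-Hochberg adjustment, adjusted p = 0.00877). This contrast was added after the values were seen and was run in the main setting alone. It shares the values at 0 h for which the region was named.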

How the results depend on the processing

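Lists of equal length gave 1130 KO-only and 1391 WT-only regions (WT-only share 55.2%), of which 267 KO-only regions were called in more KO and 346 WT-only regions in more WT libraries with LPS. Thinning to equal background coverage gave 896 KO-only regions, 248 of them called in more KO libraries with LPS, and a share of 69.8%. The share was 85.4% with a −log10 q of at least 5. Leaving out each library at 0 h in turn, where a lone library needs 1 call, gave 1513 to 4855 KO-only and 4382 to 9026 WT-only regions, and shares of 47.4% (without KO replicate 2) to 83.6%. The other counts moved by less than 1.5 times with overlap, calling limit, chaining or the X chromosome.

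In the limma fit, the 4 libraries at 0 h alone gave 1 region higher and 4 lower in KO, and with regions called in these 4, a setting chosen after seeing the data, 3 and 4. The deposited fold gave 0 and 0, as did no intensity trend (unadjusted counts stand in the report). Leaving out a library gave 3 to 87 higher and 4 to 145 lower regions, the highest without KO replicate 1, and the lone library is then assumed to vary like the other groups. With the replicate block there were 7 higher and 9 lower regions, with quantile normalization 4 and 8, and with cyclic loess 6 and 12. Among the 13 named fit regions, 73 alternative values kept their call, 70 missed the threshold and 0 changed direction. Background coverage at 0 h ran from 1.43 to 2.51 reads, and a region that a library did not call has no value there. The part of depth in the missing calls was not tested beyond the thinning.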
